A study of Sus scrofa with 63 samples.

Results

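S100G, also called calbindin-D9k, was described here in the liver of pigs whose mothers had received a gestational high protein diet (HP offspring). All probe-sets annotated to this gene alone were taken, which gave 2 of the 24123 probe-sets on the porcine Affymetrix array and 1 of the 6765 genes with a symbol of their own. S100G was chosen by its log2 signals at the stages, their spread within a stage and the genes that moved with it at 1 dpn, so these values are given as a description with no test. S100G lies on the X chromosome in the RefSeq annotation of Sscrofa11.1, between CTPS2 and SYAP1.

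S100G is a small cytosolic calcium-binding protein with a pair of EF-hand sites. In the absorptive cells of the intestine it takes up calcium that enters through the channel TRPV6 and carries it to the plasma membrane pump ATP2B1. Its gene is induced there by vitamin D through the receptor VDR, and in the uterus and placenta it responds to sex steroids. In the hepatocyte, calcium signalling runs mainly through release from the endoplasmic reticulum and refilling by the SERCA pump ATP2A2.

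The samples were livers of German Landrace offspring, all from gilts on the high protein diet, taken at 94 days post conception (94 dpc, 16 animals) and at 1, 28 and 188 days post natum (1 dpn, 16 animals; 28 dpn, 15 animals; 188 dpn, 16 animals), with 1 array per animal. Offspring of the adequate protein diet were not analysed here, and all comparisons are between ages of HP offspring. The 94 dpc fetuses came by Caesarean section from other sows in a separate experiment, the way of killing differed between stages, the lightest and heaviest animals were taken at 94 dpc and 1 dpn, and an overnight fast preceded sampling at 28 and 188 dpn, so these conditions and age cannot be told apart in the comparisons they touch. The paper states that the animals of each stage and diet were chosen as sib pairs, so most had a littermate at the same stage. As no fit here used litter, sex or weight, all p-values, also those by permutation, treat related animals as independent. In whole liver, fewer cells of a type and less RNA per cell cannot be told apart. Precision is limited by the number of arrays and, for dim probe-sets, by their closeness to background. As background of an array served the 95th percentile over its 23 control probe-sets that have no target in the sample, with log2 means of 6.10, 5.83, 5.65 and 5.64 in the order of the stages. Array 6 of 94 dpc stood apart in the 3′ minus 5′ difference of actin (4.30, against a stage mean of 2.44), and arrays 25, 27 and 28 of 1 dpn stood apart in the mean of the cell cycle list (7.04, 6.46 and 7.00, against a median of 9.26), so counts are also given without them. All 10 hepatocyte genes on the array were above background on at least 50% of the arrays of each stage, with median list means between 15.33 and 15.92.

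S100G had a strong signal in fetal and newborn liver and was close to background in the older pigs. The brighter probe-set had log2 signals from 13.76 to 15.29 with a median of 14.98 at 94 dpc, from 10.65 to 15.14 with a median of 13.77 at 1 dpn, from 2.30 to 6.93 with a median of 4.12 at 28 dpn, and from 1.63 to 7.63 with a median of 3.06 at 188 dpn. It was above background on 16 of 16, 16 of 16, 4 of 15 and 4 of 16 arrays. The means were 14.80 ± 0.45, 13.38 ± 1.45, 4.24 ± 1.67 and 3.86 ± 2.01 (SD, n = 16, 16, 15 and 16). In order of level 94 dpc stood above 1 dpn, and both stood above 28 dpn and 188 dpn. The neighbours in this order overlapped except for 1 dpn and 28 dpn.

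**Figure D1:**
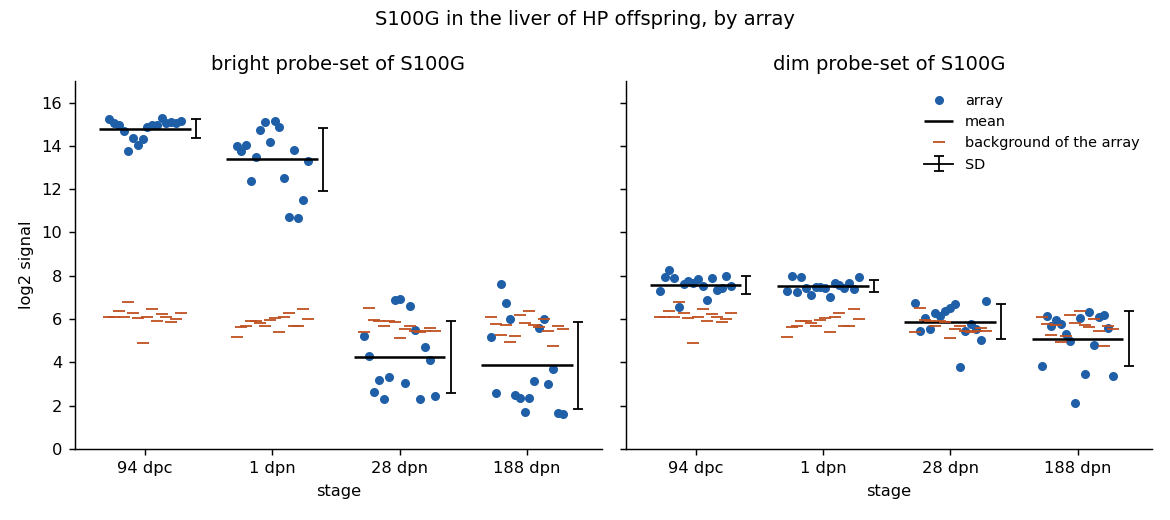
Log2 signal of both S100G probe-sets (vertical axis) at the 4 stages (horizontal axis). Points are single arrays, black lines the stage mean with its SD, and short orange lines the background of each array. The bright probe-set is well above background on all arrays of 94 dpc and 1 dpn and near or below it on most arrays of 28 dpn and 188 dpn, and the dim probe-set runs closer to background throughout.

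From 94 dpc to 1 dpn (period I) the mean of the bright probe-set was lower by a difference of −1.42, which is 2.67-fold on the linear scale, and 8 of the 16 newborn arrays were below every fetal array. From 1 dpn to 28 dpn (period II) the difference was −9.15 without any overlap between the stages, as in 6.74% of the probe-sets tested in that period. This difference corresponds to a ratio of 568-fold, but its size is not exact, because only 4 of the 15 arrays at 28 dpn were above background. With signals under background set to the background of their array the period II difference was −7.48. From 28 dpn to 188 dpn (period III) the difference was −0.37 and the stages overlapped. With the background as a floor it was 0.01, so no direction is given for period III. Labelling measures also differed between stages. The 3′ minus 5′ difference of the added RNAs averaged 0.94 (0.58 to 1.22) at 1 dpn, against 0.15 (0.01 to 0.26) at 94 dpc, and that of actin averaged 2.44, 1.59, 3.66 and 4.10 in the order of the stages. Their part in the differences of S100G was not tested.

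The animals differed most at 1 dpn among the stages with a signal. The 16 newborn arrays had 13.99, 13.75, 14.04, 12.36, 13.47, 14.72, 15.12, 14.17, 15.14, 14.87, 12.51, 10.72, 13.80, 10.65, 11.50 and 13.32 (arrays 17 to 32 in that order). The highest linear signal was 22.5 times the lowest, against 2.88 times at 94 dpc. Arrays 22, 23, 25 and 26 were the highest, arrays 28, 30 and 31 were the lowest, and the remaining arrays lay between. The SD of S100G at 1 dpn was 1.45, whereas the median SD of the 12063 probe-sets above the filter was 0.40, and 88 of them (0.73%) had a larger SD. At 94 dpc the SD was 0.45 against a median of 0.33, and 24.1% of the probe-sets had a larger one. The large SD at 28 dpn and 188 dpn belongs to signals near background and was not interpreted.

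The dimmer probe-set showed part of this course. Its mean at the stages, youngest first, was 7.58 ± 0.43, 7.51 ± 0.28, 5.88 ± 0.80 and 5.10 ± 1.26 (SD, n = 16, 16, 15 and 16), and it was above background on 15 of 16, 16 of 16, 11 of 15 and 8 of 16 arrays. The period II difference was −1.63, again without overlap, and the period I difference was −0.07. Across the newborn animals it did not follow the bright probe-set, with a Pearson r of −0.42 and a Spearman rho of −0.54 over 16 arrays. The lower level at 28 dpn was seen with both probe-sets, and the spread at 1 dpn and the difference in period I only with the bright one. All relations below use the bright probe-set.

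Genes that moved with S100G across the newborn animals were sought among 12062 probe-sets that lay above the array median on 50% or more of the 1 dpn arrays. Pearson r with S100G ran from −0.79 to 0.84, and its 5th and 95th percentiles were −0.43 and 0.45. At r of 0.7 or more stood 40 probe-sets (0.332%) and at −0.7 or less stood 8 (0.0663%). These counts were 104 and 33 without arrays 28 and 30, the animals farthest from the median of S100G, and 63 and 38 without arrays 25, 27 and 28. At 94 dpc 84 and 61 of 12021 probe-sets stood at these sizes of r, and the same percentiles were −0.53 and 0.53. Whether the counts at 1 dpn exceed those for unrelated genes was not tested. The named genes are the 10 highest and 10 lowest at 1 dpn that stayed at 0.5 or more in size without arrays 28 and 30.

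On the side of S100G the highest r belonged to SSBP4, a member of the single-stranded DNA-binding protein family, with r = 0.84 (rho 0.84). Its log2 signal at 1 dpn was 7.91 at the lowest, 9.03 at the median and 10.09 at the highest, with the lowest on array 28 and the highest on array 26. SERPINA7, the thyroxine-binding globulin that carries thyroid hormone in blood, had r = 0.83 (rho 0.89) and ran from 11.02 over a median of 12.03 to 12.98, and the same animals stood at its ends. MAGED1, an adaptor of neurotrophin receptor signalling, had r = 0.83 (rho 0.74) and ran from 12.46 over 13.35 to 14.38. Arrays 20, 28, 30 and 31, which had low S100G, were the lowest for MAGED1 as well.

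WLS, the carrier that brings Wnt proteins to the cell surface, had r = 0.81, and CREM, a transcription factor of cAMP signalling, had 0.79. BEX3, a small protein that binds the neurotrophin receptor p75, had 0.78, with signals from 9.42 to 12.26. METTL26 had 0.78, FUT1, the fucosyltransferase of the H blood group antigen, had 0.77, ORM1, an acute-phase protein of plasma, had 0.77, and ARHGEF6, an exchange factor for Rac and Cdc42, had 0.77. All of these were above background on 16 of 16 newborn arrays. Both probe-sets of ARHGEF6 followed S100G (0.77 and 0.75), whereas the other probe-sets of ORM1 (−0.23 and −0.22) and of BEX3 (−0.60, below the filter) did not, and those of CREM ranged from 0.25 to 0.52.

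Opposite to S100G stood BAG1, a co-chaperone of HSP70, with r = −0.79 and signals from 9.83 over a median of 10.49 to 11.01. SEC31A, a subunit of the COPII coat of vesicles leaving the endoplasmic reticulum, had −0.78, and ARIH2, a ubiquitin ligase, had −0.77. GLRX, a glutaredoxin that reduces glutathionylated proteins, had −0.72 and ran from 10.10 over 11.22 to 11.87. LITAF, a protein of late endosomes, had −0.70 and ran from 11.73 over 12.53 to 13.86. THAP7, ARPC4 (a subunit of the actin-branching Arp2/3 complex), CAMK2G (a kinase activated by calcium and calmodulin), DDX27 and PIGC lay between −0.70 and −0.68. For most of these genes another probe-set was closer to 0, such as −0.16 for BAG1 and −0.08 and −0.30 for SEC31A. For ARPC4 (−0.60) and CAMK2G (−0.63) it was of like size.

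**Figure D2:**
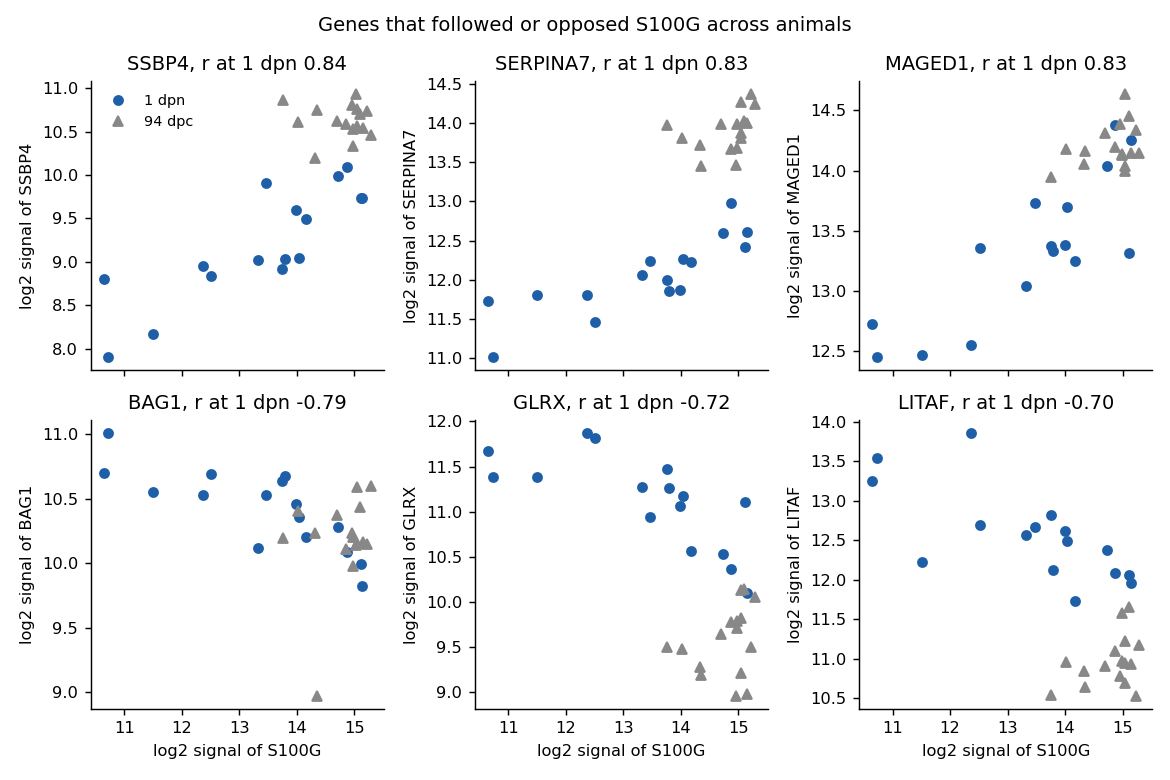
Log2 signal of 6 named genes (vertical axes) against the log2 signal of the bright S100G probe-set (horizontal axis). Blue circles are the 16 animals of 1 dpn and grey triangles the 16 fetuses of 94 dpc. SSBP4, SERPINA7 and MAGED1 run upwards with S100G in the newborn animals (r of 0.84, 0.83 and 0.83), and BAG1, GLRX and LITAF run downwards (−0.79, −0.72 and −0.70).

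In period I, 9 of the 10 genes on the side of S100G fell and CREM did not pass the test (0.10, adjusted p = 0.573 from limma with Benjamini-Hochberg adjustment, as for all calls between stages). Of all 12839 probe-sets tested 34.0% fell and 22.9% rose. ORM1 had a log2 difference of −2.60 (SE 0.24, adjusted p = 4.12e-11), BEX3 of −2.40 (SE 0.19, adjusted p = 1.02e-12), SERPINA7 of −1.84 (SE 0.14, adjusted p = 3.43e-13) and SSBP4 of −1.42 (SE 0.16, adjusted p = 4.74e-09). The median difference of the 10 genes was −1.08. The ranges of SSBP4 did not meet, with 7.91 to 10.09 at 1 dpn and 10.20 to 10.93 at 94 dpc, as in 3.20% of the probe-sets tested. MAGED1 ran from 12.46 to 14.38 at 1 dpn and from 13.95 to 14.63 at 94 dpc, so its ranges overlapped.

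On the opposite side 4 genes rose in period I and none fell, beside 22.9% and 34.0% of all probe-sets, and 6 did not pass. GLRX rose by 1.55 (SE 0.16, adjusted p = 4.10e-10) and LITAF by 1.60 (SE 0.16, adjusted p = 5.17e-10), and ARPC4 (0.37) and CAMK2G (0.43) rose less. Both measures share the newborn arrays, and the genes were picked for their r, so no test was made of these counts. Over the probe-sets tested in period I that were also above the filter at 1 dpn the median r at 1 dpn was 0.06 for the 3728 that fell, −0.08 for the 2940 that rose and −0.02 for the 5393 that did not pass. At 94 dpc the medians lay the other way, with −0.08 for the probe-sets that fell and 0.15 for those that rose.

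In period II the genes on the side of S100G went both ways. MAGED1 (−1.97), BEX3 (−2.14), ARHGEF6 (−1.93), CREM (−1.19) and SSBP4 (−0.90) fell, SERPINA7 (1.01) and METTL26 (0.74) rose, and 3 did not pass. Over all probe-sets 42.9% fell and 28.8% rose. None of these 10 genes came near the S100G difference of −9.15. In period III 8 of the 10 fell and none rose, beside 22.5% and 12.3% of all probe-sets, with ARHGEF6 (−1.54) as the largest. On the opposite side 5 rose and 3 fell in period II, among them SEC31A with −3.13 (not exact, since only 8 of 15 arrays of 28 dpn exceeded background), and 1 rose and 3 fell in period III.

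**Figure D3:**
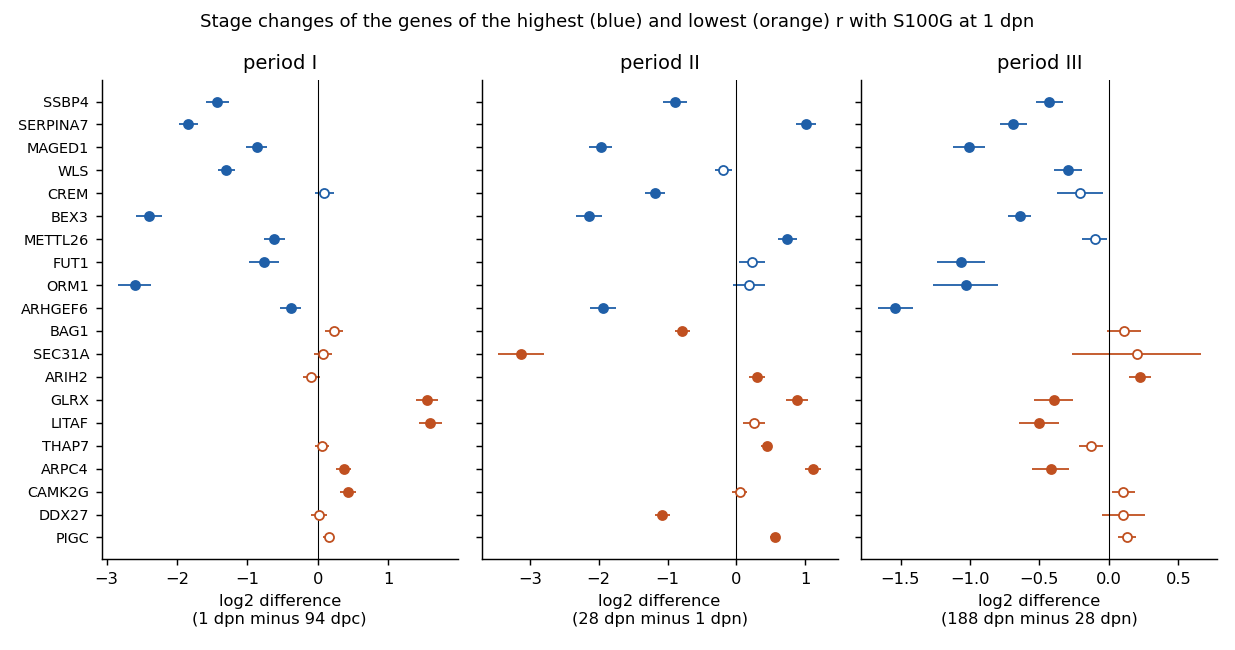
Log2 differences between adjacent stages (horizontal axes, later minus earlier, bars are SE) for the 20 named genes (rows). Blue marks the genes of the highest and orange those of the lowest r with S100G at 1 dpn, and filled points passed the test at an adjusted p under 0.05. In period I 9 of the 10 blue genes lie below 0 and are filled, while in period II blue genes lie on both sides of 0.

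The fetuses of 94 dpc allowed a test, since the choice of the genes had not used relations there. None of the 20 named genes passed it (limma with S100G as covariate, Benjamini-Hochberg over 12021 probe-sets, adjusted p between 0.289 and 0.951). Of the 10 genes on the side of S100G 7 had a positive r at 94 dpc, and so had 7 of the 10 on the opposite side. BEX3 was nearest, with r = 0.68 (permutation p = 0.00406), rho = 0.74 (permutation p = 0.00151) and an adjusted p of 0.289. Without arrays 5 and 7, the fetuses farthest from the median of S100G, its r was 0.73. METTL26 had r = 0.55 (permutation p = 0.0277), rho = 0.65 (permutation p = 0.00761) and an adjusted p of 0.333. SSBP4, the first gene at 1 dpn, had r = −0.06 (permutation p = 0.833) and rho = −0.13 (permutation p = 0.633). SEC31A, opposite to S100G at 1 dpn, had r = 0.53 (permutation p = 0.0329) and rho = 0.49 (permutation p = 0.0554) here. S100G spanned a 2.88-fold range in the fetuses and a 22.5-fold range in the newborn animals. The part of this difference in the relations at 94 dpc was not tested.

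**Figure D4:**
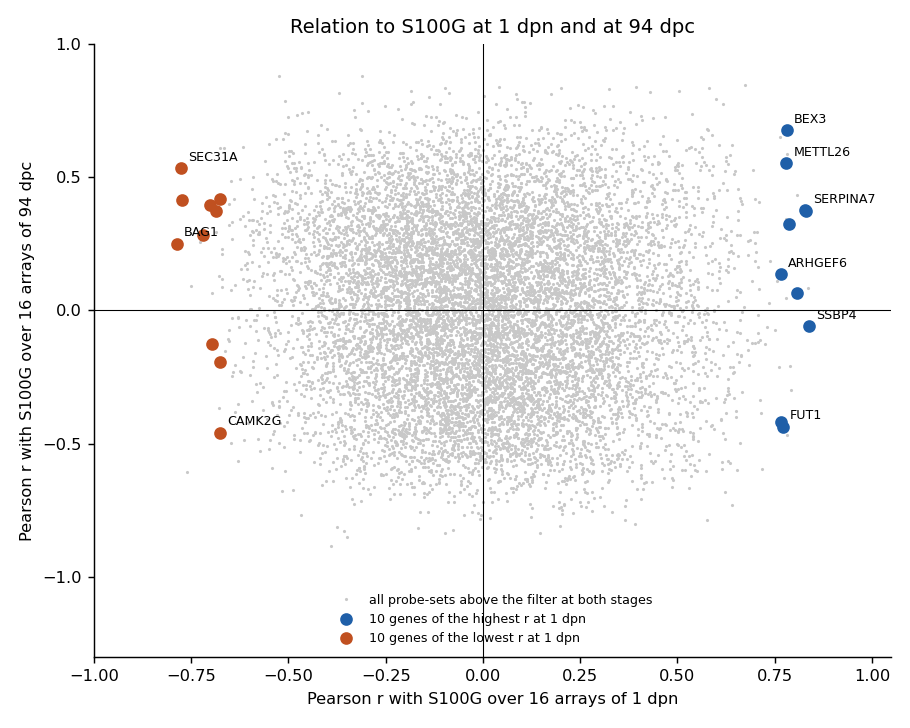
Pearson r with S100G over the 16 arrays of 1 dpn (horizontal axis) against r over the 16 arrays of 94 dpc (vertical axis). Grey dots are all probe-sets above the filter at both stages, blue and orange points the 10 genes of the highest and lowest r at 1 dpn. Both coloured groups spread from below −0.4 to above 0.5 on the vertical axis.

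Over all probe-sets 10 of 12021 (0.0832%) passed at 94 dpc, 9 higher and 1 lower with S100G, and 1511 (12.6%) had an unadjusted p under 0.05. C8A, the alpha chain of complement component C8, was lower where S100G was higher (slope −1.78 per unit of S100G, SE 0.24, adjusted p = 0.00456), with r = −0.89 (permutation p = 7e-05) and rho = −0.81 (permutation p = 0.00023). Higher with S100G were OAS1, an interferon-induced antiviral enzyme (slope 4.48, SE 0.82, adjusted p = 0.0427), the membrane protein MAL (1.59), RNFT1 (1.19), TMED3, a cargo protein of early secretory vesicles (1.15), LOC100518575 (0.93), DCTPP1, a pyrophosphatase of dCTP (0.89), and 3 probe-sets without a symbol. The counts were 5 and 1 without array 6 and 0 and 0 without arrays 5 and 7. The lowest S100G signals of the fetuses were on arrays 5, 6, 7 and 8 (13.76, 14.35, 14.02 and 14.33), which carry adjacent numbers. Whether these arrays share a litter or a processing run is not in the labels, and its part in the calls was not tested. None of the 10 reached an r of 0.7 at 1 dpn, where the nearest were LOC100518575 (0.67), DCTPP1 (0.58) and RNFT1 (0.50), and C8A had −0.39.

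Several genes that followed S100G at 1 dpn shared its chromosome. Of 226 X-linked probe-sets 6 had an r of 0.7 or more (2.65%, in SERPINA7, MAGED1, BEX3, ARHGEF6 and MID1IP1), against 16 of 6353 on other chromosomes (0.252%). The median r was 0.01 on the X chromosome and −0.02 on the others, so the X-linked probe-sets as a whole did not stand apart. At 94 dpc the shares were 0.448% (AVPR2) and 0.731%. This pattern was noticed in the data and has no test. The next genes with a probe-set on either side of S100G were not among the followers at 1 dpn, with −0.40 for ZRSR2 (not tested between stages), −0.03 for SYAP1, −0.18 for TXLNG and 0.22 for RBBP7. At 94 dpc SYAP1 had r = −0.76 and rho = −0.60 but did not pass the limma test with S100G as covariate (adjusted p = 0.190). ZRSR2, TXLNG and RBBP7 had r of 0.03, −0.15 and −0.34 there. EIF1AY, a Y-linked translation factor, had r = 0.46 with S100G at 1 dpn and 0.33 without arrays 28 and 30, with signals from 1.61 to 10.15. Another probe-set placed on the Y chromosome, LOC100624648, had r = 0.51 and 0.63 without those arrays, and CD99, placed there by the annotation, had 0.08. Of the Y-placed probe-sets below the filter at 1 dpn, those of LOC396706 had 0.50 and −0.01 and that of SRY had 0.07. The part of sex in these relations was not tested.

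Technical measures were set against S100G within 1 dpn and within 94 dpc, 10 relations in all over 16 arrays each. At 1 dpn background had r = −0.48 (permutation p = 0.0586, adjusted p = 0.217) and rho = −0.44 (permutation p = 0.0952), and r = −0.57 without arrays 28 and 30 (permutation p = 0.0326). The 3′ minus 5′ difference of the added RNAs had r = −0.47 (permutation p = 0.0652, adjusted p = 0.217), rho = −0.31 (permutation p = 0.248) and r = −0.12 without those arrays. At 94 dpc the 3′ minus 5′ difference of actin had r = −0.50 (permutation p = 0.0513, adjusted p = 0.217), rho = −0.51 (permutation p = 0.0453) and r = −0.73 without arrays 5 and 7 (permutation p = 0.00435). The other relations had unadjusted p of 0.230 or more for r. Over the newborn arrays background ran from 5.18 to 6.46.

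The marker lists of other cell types had r between −0.36 and 0.22 with S100G over the 16 arrays of 1 dpn. Of 7 measured genes of the intestinal epithelium, the tissue best known for S100G, 4 were above background on at least 50% of the newborn arrays, and the list mean ran from 5.88 to 7.51 with r = 0.11 to S100G. FABP2, FABP6 and RBP2 were above background on 2, 1 and 0 of the 16 newborn arrays. APOA4 and CDH17 were above it on 16 arrays and SLC5A1 on 15, with r of 0.12, −0.04 and −0.10, and VIL1, also found in bile canaliculi, was above it on 16 and had r = 0.52. The bile duct list had r = 0.02. Of its 9 measured genes EPCAM (r = −0.65), SPP1 (0.21), AQP1 (−0.26) and CLDN4 (−0.40) were above background on 16 newborn arrays, KRT19 (0.30) on 15 and TFF3 on 11, and SOX9, CFTR and TFF2 on 1, 3 and 3. The lists of red cell precursors, neutrophils and macrophages had r of −0.35, −0.30 and −0.36, and stellate cells and fibroblasts had 0.22 (0.38 without arrays 28 and 30). The hepatocyte list had −0.32 (−0.55 without those arrays), and its mean ran from 15.20 to 15.95 over the newborn arrays. The kidney list had no measured gene. The part of cell composition in the spread of S100G was not tested.

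Of the gene lists, that of the fetal liver ran closest to S100G in the newborn animals. Its mean over AFP, PEG3, PEG10, IGF2, PLAGL1 and GPC3 ran from 10.28 to 11.70 at 1 dpn and had r = 0.62 and rho = 0.74 to S100G, with 0.78 without arrays 28 and 30. At 94 dpc the same mean had r = −0.48 and rho = −0.66. Single members spread widely at 1 dpn. PEG10, an imprinted gene of placenta and fetal liver, had r = 0.57, IGF2, the fetal growth factor, had 0.25, and PEG3 had 0.24. PLAGL1 had −0.04, AFP, the fetal plasma albumin, had −0.17, and GPC3 had −0.30. The SD of PEG10 at 1 dpn was 2.26, against 0.21 (AFP) to 0.65 (PLAGL1) for the other members, so the list mean depended most on PEG10. All 6 fell in period I, beside 34.0% of all probe-sets. Genes of newborn fuel metabolism, of which 12 of 16 rose and 2 fell in period I (beside 22.9% and 34.0% of all), had r = −0.33, and −0.65 without arrays 28 and 30. The amino acid shortage list had r = 0.48. Highest among its members were PHGDH (0.62) and PSAT1 (0.51), enzymes of serine synthesis, and ALDH18A1 (0.52), an enzyme of proline synthesis. Its other measured members had r from −0.19 (ATF5) to 0.24 (SLC3A2), with ASNS at 0.10 and DDIT3 at 0.19. The cell cycle list had r = 0.16.

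Other S100 genes moved in both directions. Of 9 other S100 genes on the array 8 were tested in each period. In period I 4 fell, 1 rose and 3 did not pass (50.0% and 12.5%, beside 34.0% and 22.9% of all probe-sets), and the median was −0.20 relative to the median of all genes. S100A9 (−1.53, SE 0.32, adjusted p = 1.37e-04), S100A12 (−1.32) and S100A8 (−1.11), all of them proteins of neutrophils, fell. The mean of the neutrophil marker list ran from 6.44 to 9.00 at 1 dpn, against 7.40 to 10.67 at 94 dpc. These 3 genes are among the 5 measured genes of that list, so its mean is no separate result. The part of cell composition was not tested. S100A14, an epithelial member, rose with a difference of 1.23 (SE 0.27) and an adjusted p of 2.28e-04. In period II, where S100G came close to background, 4 S100 genes rose, 1 fell and 3 did not pass (50.0% and 12.5%, beside 28.8% and 42.9%). S100A4, typical of fibroblasts and white blood cells, had 7.36 to 8.93 at 28 dpn against 3.09 to 6.62 at 1 dpn, with no overlap (as for 4.95% of the probe-sets, higher at 28 dpn) and a difference of 3.24 (SE 0.29, adjusted p = 1.78e-11). The size of this difference is not exact, because S100A4 was above background on only 5 of 16 arrays at 1 dpn. S100A11 (0.81) and S100A10 (0.66) rose as well. In period III 5 fell (62.5%, beside 22.5%), led by S100A11 (−1.27), and none rose (beside 12.3%). None of the 9 came to an r of 0.5 in size with S100G at 1 dpn, where S100A9 was farthest from 0 with −0.46.

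Other calcium-binding proteins went both ways. In period I 8 of 20 tested genes rose and 5 fell (40.0% and 25.0%, beside 22.9% and 34.0% of all probe-sets). NUCB2, a calcium-binding protein of the secretory pathway and precursor of nesfatin, ran from 10.37 to 12.20 at 1 dpn and from 8.05 to 9.80 at 94 dpc, without overlap (as for 1.85% of the probe-sets, higher at 1 dpn), and rose by 2.42 (SE 0.17, adjusted p = 5.30e-14). CIB1, a regulator of integrins, rose by 1.00, while the calmodulin gene CALM3 (−0.93) and RCN1, a protein of the endoplasmic reticulum (−0.93), fell. In period II 8 rose and 9 fell (40.0% and 45.0%, beside 28.8% and 42.9%). CALR, the calcium buffer of the endoplasmic reticulum, rose by 1.68 (SE 0.12, adjusted p = 2.59e-13), SPARC, a matrix protein, rose by 1.26, and NUCB2 fell by 1.96. In period III 2 rose and 8 fell (10.0% and 40.0%, beside 12.3% and 22.5%). CALB2, the calretinin gene, was above background on 4 of 16, 7 of 16, 1 of 15 and 5 of 16 arrays and was not tested.

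TRPV6 and ATP2B1, the transport partners of S100G in the intestine, were both measured. TRPV6 exceeded background on 6 of 16, 9 of 16, 7 of 15 and 9 of 16 arrays in the order of the stages, with stage means between 5.28 and 5.83, and was not tested. ATP2B1 was above background on all arrays. It had 8.70 to 10.03 at 1 dpn and 8.68 to 10.33 at 94 dpc and did not pass in period I (0.09, adjusted p = 0.641). In period II ATP2B1 fell by 1.52 (SE 0.16, adjusted p = 5.61e-10). Across newborn animals its r with S100G was 0.01, and that of TRPV6 was −0.44. Of 11 tested channels and pumps 6 rose and 1 fell in period I (54.5% and 9.09%, beside 22.9% and 34.0% of all probe-sets). In period II 4 rose and 2 fell (36.4% and 18.2%, beside 28.8% and 42.9%), and in period III 1 rose and 3 fell (9.09% and 27.3%, near the 12.3% and 22.5% of all). ATP2A2 rose by 2.54 (SE 0.46, adjusted p = 1.93e-05) in period I and by 1.84 in period II, where another of its probe-sets fell. The mean of the whole list, which includes genes that were not tested, had r = −0.55 with S100G at 1 dpn and 0.13 at 94 dpc. Its members of the lowest r at 1 dpn were RYR1 (−0.59) and ITPR1 (−0.55), above background on 0 and 2 of 16 newborn arrays. The 11 tested genes had r from −0.20 (ORAI1) to 0.41 (ATP2C1) at 1 dpn. LETM1, a mitochondrial cation exchanger, rose by 1.10 in period I, and ORAI3, a store-operated channel subunit, by 1.97 in period II.

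Genes of vitamin D and of hormone receptors included 5 of 10 tested that fell in period I, beside 34.0% of all probe-sets, and none that rose, beside 22.9%. No probe-set used here carried VDR as its only symbol. Those that fell in period I included NCOA2 (−1.07), a receptor coactivator, RXRA (−0.72), the partner of VDR, and GC (−0.57), the vitamin D binding protein made by hepatocytes. In period II 2 of 10 rose and 4 fell (20.0% and 40.0%, near the 28.8% and 42.9% of all probe-sets), and in period III 4 of 9 rose and 1 fell (44.4% and 11.1%, beside 12.3% and 22.5%). The genes that fell in period II included the glucocorticoid receptor NR3C1 (−1.13, SE 0.16, adjusted p = 3.49e-07) and RXRA (−0.96). CYP27A1, a sterol hydroxylase that also acts on vitamin D, rose by 0.94 in period II and by 0.71 in period III. The activating enzyme CYP27B1 and the degrading enzyme CYP24A1 were above background on 3 and 2 of the 15 arrays of 28 dpn and on 7 and 9 of the 16 newborn arrays. Of the sex steroid receptors ESR1 exceeded background on 9 of 15 arrays of 28 dpn and on 16 of 16 of 1 dpn, while ESR2 and PGR were above it on none of the arrays of these stages. Over all 4 lists 15 of 49 genes rose and 15 fell in period I, 18 rose and 16 fell in period II, and 7 of 48 rose and 17 fell in period III. These shares were 30.6% each in period I (beside 22.9% and 34.0% of all probe-sets), 36.7% and 32.7% in period II (beside 28.8% and 42.9%), and 14.6% and 35.4% in period III (beside 12.3% and 22.5%). With each array centred on its median, since the median of all probe-sets was −0.13 in period II, 24 rose and 10 fell there. In period II another probe-set of CALM3, CAPNS1, ATP2A2 and TMBIM6 passed in the opposite direction.

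**Figure D5:**
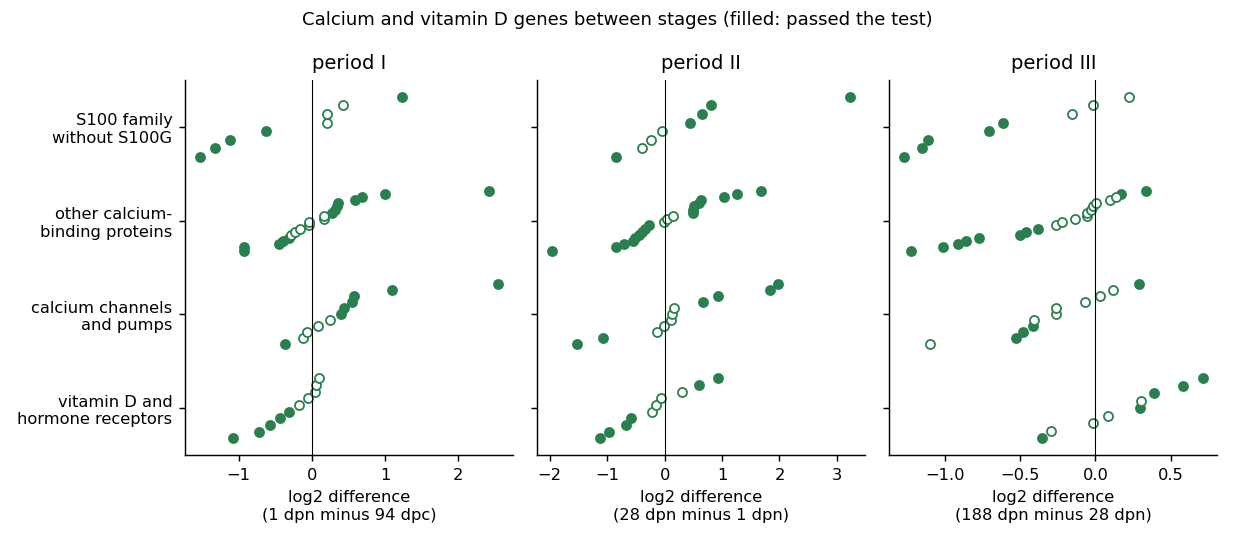
Log2 differences between adjacent stages (horizontal axes, later minus earlier) of the tested members of 4 gene lists (rows) without S100G. Each point is a gene, filled where it passed the test. Members lie on both sides of 0 in most rows. The point at 3.24 in period II is S100A4, which exceeded background on 5 of the 16 newborn arrays, and the point at 2.54 in period I is ATP2A2.

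Over all 63 arrays the genes most like S100G were those with a step between 1 dpn and 28 dpn. IGF2 had the highest r (0.96, rho 0.84), with stage means of 15.31, 14.59, 11.19 and 10.78. It was followed by EPRS, a tRNA synthetase (0.94), ASNS, asparagine synthetase (0.94), RPL22L1, a ribosomal protein (0.94), PITPNB, a phospholipid transfer protein (0.94), FAM3C, a secreted factor (0.93), UBA2, a subunit of the SUMO activating enzyme (0.93), the ubiquitin ligases UBE4B (0.93) and RNF128 (0.93), and PPP1CB, a phosphatase subunit (0.93). These r values rest on the gap between the younger and older stages, and the 63 points share their stage, so they are a description only. Within 1 dpn the same genes had r between −0.15 (EPRS) and 0.61 (UBA2), and IGF2 had 0.25. All 10 fell in period II (beside 42.9% of all probe-sets), with differences from −1.57 (UBE4B) to −5.05 (EPRS). The choice by r over all arrays favours genes with this step, so the period II count is no separate result. In period I 5 of them also fell (beside 34.0% of all probe-sets). The difference of EPRS is not exact, because it was above background on only 7 of 15 arrays at 28 dpn.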

How the data were processed

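The 63 porcine arrays each measured liver RNA of 1 animal. The deposited values are log2 signals of 24123 probe-sets. The submitters' notes name GCOS 1.1.1. Each array had a trimmed mean of 500 on the linear scale (2% trimmed at either end), and no other step between arrays was seen in the values. Stages came from the labels. Without the 188 controls, 10069 probe-sets carried 1 symbol in the platform annotation, 198 several and 13668 none, and 9961 had a chromosome in RefSeq (Sscrofa11.1). A listed gene was represented by its probe-set of the highest mean. Per period, limma 3.58.1 in R 4.3.3 compared both stages by a two-sided moderated test. Probe-sets entered when they exceeded the array median on 50% or more of the arrays of either stage, and those with a Benjamini-Hochberg adjusted p under 0.05 were called. At 94 dpc the same model took S100G as covariate, and single relations had 100000 permutations. The fits were tested on simulated data with 200 planted changes and independent noise on each array, which does not cover related animals. S100G, the gene and marker lists and the naming rules were chosen with earlier results of these data known. The rules named the 10 genes of highest and of lowest r at 1 dpn, the 10 of highest r over 63 arrays, and the 4 largest passing changes of a list. Neighbouring genes, X- and Y-linked genes, list members that were not tested, and single members of the fetal, amino acid and marker lists were named after their values were seen. The GCRMA values, detection calls and mixed model of the study were not used here.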

Additional observations from a re-analysis of the deposited data

How the results depend on the processing

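The S100G difference between stages kept its direction in periods I and II under quantile normalization (−1.11 and −9.09), median centring (−1.26 and −8.75) and the background floor, which moved period II to −7.48. The dim probe-set gave −0.073 in period I and −1.63 in period II. The counts of probe-sets at r of 0.7 or more and −0.7 or less at 1 dpn (40 and 8) depended on the setting. They were 81 and 27 with Spearman rho, 104 and 33 without arrays 28 and 30, 63 and 38 without arrays 25, 27 and 28, 55 and 18 given the actin difference, and 58 and 19 without a filter on level. All 20 named genes kept the sign of r under these settings and quantile normalization. The 9 and 1 calls at 94 dpc were 3 and 0 after quantile normalization, 1 and 1 without a filter, 5 and 1 without array 6, 0 and 0 without arrays 5 and 7, and 8 and 3 with a trend. The counts of calcium and vitamin D genes stayed within 1.5 times, except that 10 instead of 16 fell in period II after centring on the median. Leaving out array 6 or arrays 25, 27 and 28 there was added after seeing the data. Among the list members with the largest changes, S100A9 in period II and LETM1 and NCOA1 in period III no longer passed after quantile normalization or centring. Without the farthest arrays, background at 1 dpn (r = −0.57) and the actin difference at 94 dpc (r = −0.73) passed an unadjusted permutation test. The causes were not tested. Numbers on the arrays are unique to an animal. No paired analysis was possible, because each animal was sampled at 1 stage and the labels do not give the litter.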
